A study of Mus musculus with 4 samples.

Results

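The genes described here encode the machinery that builds ribosomes in the nucleolus. They are 38 gene symbols listed by function, out of 24012 symbols in the deposited table, and each has an entry there. Where a symbol had several entries, that of the highest mean was kept. RNA-seq was run on whole islets of the mouse, which hold the endocrine cells of the pancreas. From total RNA, 2 libraries were made at 2.8 mM glucose and 2 at 16.8 mM, with a kit that selects polyadenylated RNA. Islets of male C57bl6 mice, 3 months old, carrying no allele or agent that the labels name, were pooled, held overnight at 11 mM glucose and then for 2 h at 2.8 mM. After that, both concentrations lasted 12 h by the design text, but by the labels of single samples the lower lasted 2 h and the higher 12 h, so a difference of time cannot be told apart from a difference of glucose. Since the islets came from a pool, p-values measure only the spread between these libraries, which may be technical.

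Ribosomes are assembled from ribosomal RNA and ribosomal proteins. RNA polymerase I transcribes the long precursor of ribosomal RNA in the nucleolus, small nucleolar ribonucleoproteins (snoRNPs) modify and help to fold it, and a large complex called the SSU processome cuts out and shapes the small subunit while other factors build the large one. The pathway takes a large share of a cell's resources, and the transcription factor Myc is a well known activator of its genes.

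Between 16.8 mM and 2.8 mM glucose, 16 of the 30 members that could be tested fell and none rose (limma with Benjamini-Hochberg adjustment). Each role group of the members held at least 1 fall, though as few as 1 of 3 genes tested. Among the genes that fell were nucleolin (*Ncl*), nucleophosmin (*Npm1*), the RNA polymerase I factor *Ubtf* and the small subunit factor *Rrp9*. The RPKM of the 16 genes was between 24.9% and 48.6% below its mean at 2.8 mM. Of all 7867 transcripts tested, 33.4% passed the same threshold in either direction, 10.7% higher and 22.8% lower, against 53.3% of the members tested. The median log2 fold change was -0.35 over the 30 members and -0.11 over all transcripts tested. At an unadjusted p under 0.05, 21 members were lower and 0 higher, against 31.7% of all transcripts lower and 14.1% higher. The voom fit, limma's method for reads run on reads reconstructed from the table, called 28 of the 38 lower, against 29% of its 17243 entries, and 0 higher. Several of the calls were lost without 16.8 mM replicate 2, where fewer of all transcripts were called as well. With a library left out, the median of the members ran from -0.43 to -0.26. Without a minimum level the count was 7 of 38, against 6.17% of 28047 entries.

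The values are RPKM, reads per kilobase scaled to the depth of the library. The length behind them was inferred from the values and not stated for these libraries. Where steps of the RPKM could be checked, 78.0% to 78.9% of a library's values were whole reads (within 0.08) over the genomic span, introns included, against 23.7% to 24.7% over the exons, and the span fitted 18 of the 38 members. If the span was used throughout, an RPKM can hold reads from introns and from genes that lie inside or across the span, and RPKM levels of different genes are not compared here. Fold changes are differences of log2(RPKM + 0.5), which understate the change of low genes. The other 8 members, with a mean under 1 RPKM over the 4 libraries, were not tested. A member near that minimum passes it more easily when it is high in either group, so the counts above speak for the tested members alone. Over all 38 members, fitted without a minimum, the median was -0.33.

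In the plot of all members by library, the 16.8 mM points lie to the left of the 2.8 mM points for most genes. Both 16.8 mM libraries were under both 2.8 mM libraries for 35 of the 38 members, and for 27 of the 30 tested, against 48.3% of all transcripts tested. The exceptions were *Bysl*, *Rrp1* and *Gnl2*, where the groups overlapped. For 11 of the 35 the gap between the groups was narrower than the wider distance between replicates, namely *Fbl*, *Nop56*, *Gar1*, *Nhp2*, *Nop10*, *Ddx21*, *Nop14*, *Ltv1*, *Nop2*, *Pes1* and *Rrs1*, and of these *Gar1* and *Nhp2* were called lower.

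**Figure D1:**
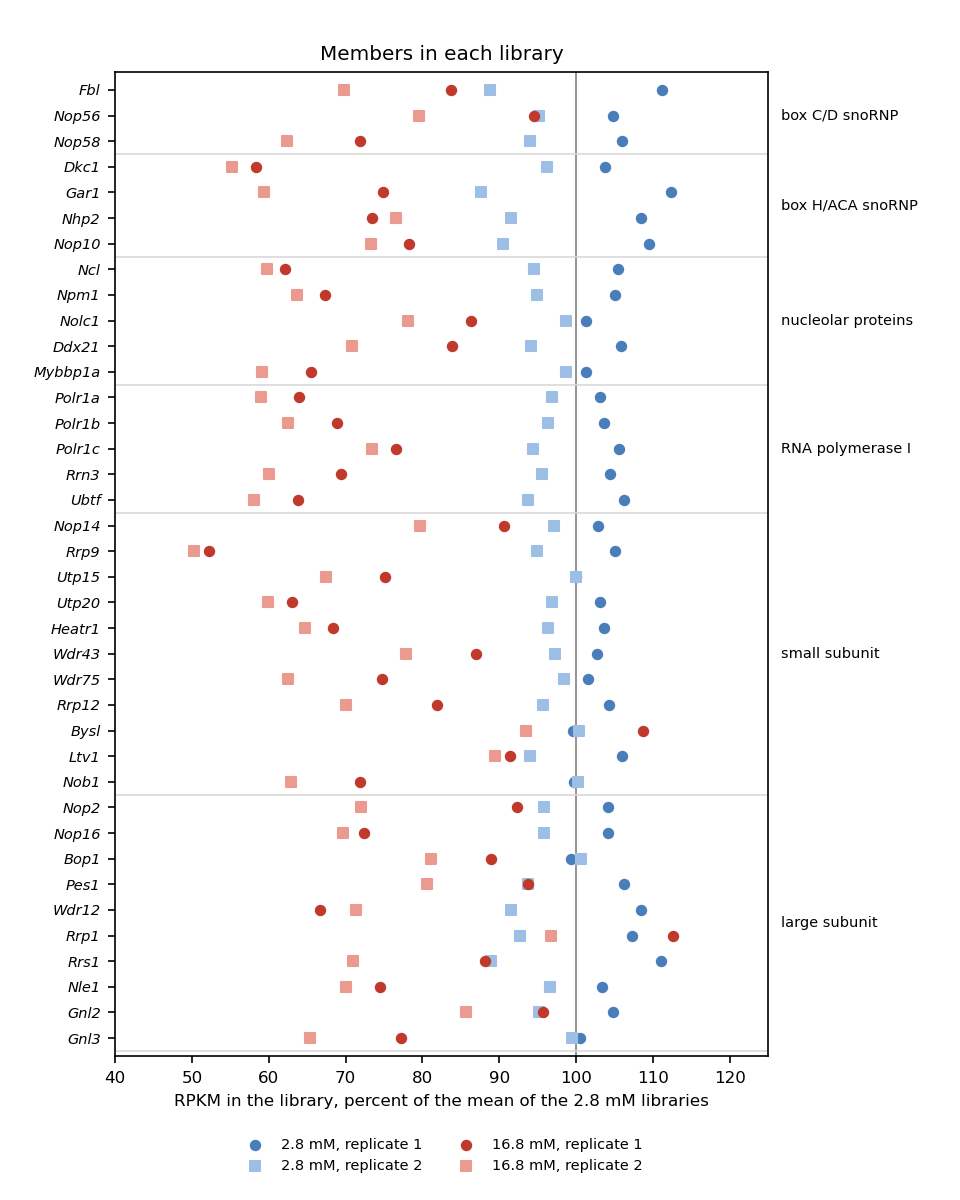
RPKM of each of the 38 members in each library (x axis, percent of the mean of the 2.8 mM libraries), ordered by role (y axis). Points are single libraries, blue at 2.8 mM and red at 16.8 mM, and both red points lie left of both blue points for 35 members.

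The labelled tissue was checked with marker genes. The summed RPKM of 10 islet endocrine markers was 23625 and 26885 at 2.8 mM and 44297 and 48030 at 16.8 mM, and the share of reads in the 10 most abundant genes was 6.60% and 7.29% at 2.8 mM against 10.69% and 11.15% at 16.8 mM. The summed level of 15 acinar markers was 112 and 317 RPKM in replicates 1 and 2 at 2.8 mM. At 16.8 mM the sum was 270 and 563 RPKM in replicates 1 and 2, higher within each replicate number. None of the 15 was at 0 throughout. In limma without a replicate block none was called, and in voom 13 were called higher. With the replicate block, limma called every tested acinar marker except *Rnase1* higher (adjusted p under 0.05). The sum of 6 duct markers was 35.5 to 40.5 RPKM at 2.8 mM and 41.2 to 46.9 RPKM at 16.8 mM, but its genes went apart. The duct marker *Krt7* fell from 20.6 and 18.8 RPKM to 13.8 and 12.8 RPKM (-0.55 ± 0.12, adjusted p = 0.015, limma) and *Spp1* rose from 18.3 and 12.4 RPKM to 22.7 and 26.0 RPKM (0.67 ± 0.19, adjusted p = 0.036, limma). The sum of 8 endothelial markers, mostly *Esm1*, overlapped between the groups (5.20 to 9.63 RPKM over the libraries), yet 4 of the 8 (*Pecam1*, *Cdh5*, *Flt1* and *Tek*, each under 1 RPKM and not tested in limma) were higher at 16.8 mM without overlap and called higher in voom. The sum of 9 markers of proliferating cells, mostly *Pcna*, overlapped as well (9.62 to 12.0 RPKM), while 5 of the 9 (*Mki67*, *Top2a*, *Ccnb1*, *Cdk1* and *Mcm5*) were higher at 16.8 mM without overlap and 1 (*Mcm2*) lower. *Mki67* was at 0.0731 to 0.0978 RPKM against 0.0999 to 0.132 RPKM, and *Top2a*, *Cdk1* and *Mcm5* were called higher in voom. Sums of 8 macrophage and leukocyte markers (12.5 to 18.5 RPKM) and 8 stromal markers (2.34 to 4.21) overlapped too. Of the macrophage and leukocyte markers, 2 were higher and 1 lower at 16.8 mM without overlap. Among them *Cd14* rose from 0.927 and 0.909 RPKM to 1.94 and 1.87 RPKM (0.76 ± 0.08, adjusted p = 8.3e-04, limma). The lower one, *Aif1*, was at 0.29 and 0.15 RPKM against 0.148 and 0.114 RPKM and was not tested in limma. Of the stromal markers, *Acta2* was called lower in voom (-0.34, adjusted p = 0.045). The single markers were named here after their values were seen, and the part of these cell types in the member results was not tested. In whole islets, fewer cells of a type and less RNA per cell cannot be told apart. Depth was between 50803200 and 60710400 reads, and of the 18 members whose span could be matched to whole reads, each had between 261 and 5212 reads in a library.

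Box C/D snoRNPs guide 2'-O-methylation of ribosomal RNA, with fibrillarin (*Fbl*) as the methyltransferase and *Nop56* and *Nop58* as core proteins. *Nop58* fell from 2.92 and 2.59 RPKM at 2.8 mM to 1.98 and 1.72 RPKM at 16.8 mM. Its groups did not overlap, and its log2 fold change was -0.47 ± 0.10 (SE, 2 against 2 libraries, adjusted p = 0.013, limma). *Nop56*, the member of this group with the highest RPKM, stood at 8.77 and 7.96 RPKM at 2.8 mM and at 7.91 and 6.65 RPKM at 16.8 mM. The replicates of *Nop56* at 16.8 mM lay further apart than the groups did (-0.19 ± 0.13, adjusted p = 0.272, limma). *Fbl* was between 2.61 and 3.27 RPKM at 2.8 mM and between 2.05 and 2.46 RPKM at 16.8 mM. Its fold change of -0.32 did not pass (95% interval -0.61 to -0.02, adjusted p = 0.095, limma), although it did without 2.8 mM replicate 2 (adjusted p = 0.019) and without 16.8 mM replicate 1 (adjusted p = 0.030).

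Box H/ACA snoRNPs convert uridine to pseudouridine, through the enzyme dyskerin (*Dkc1*) and its partners *Gar1*, *Nhp2* and *Nop10*. *Gar1* fell from 1.5 and 1.17 RPKM to 1 and 0.792 RPKM. *Nhp2* fell from 3.06 and 2.58 RPKM to 2.07 and 2.16 RPKM. In both genes the groups were apart, but the 2.8 mM replicates differed from each other by more than the 16.8 mM replicates did. The log2 fold changes were -0.39 ± 0.12 for *Gar1* (adjusted p = 0.039, limma) and -0.34 ± 0.10 for *Nhp2* (adjusted p = 0.040, limma). *Gar1* did not pass without 2.8 mM replicate 1 (adjusted p = 0.096) or without 16.8 mM replicate 2 (adjusted p = 0.099), and *Nhp2* did not pass without 2.8 mM replicate 1 (adjusted p = 0.290), 16.8 mM replicate 1 (0.090) or 16.8 mM replicate 2 (0.062). *Nop10* had the highest RPKM of all members, 26.0 and 21.5 RPKM at 2.8 mM and 18.6 and 17.4 RPKM at 16.8 mM. Its groups did not overlap, and its change of -0.39 ± 0.14 did not pass (adjusted p = 0.072, limma). In several other fits it did pass, among them voom (adjusted p = 0.0094) and limma after median centring of the libraries (adjusted p = 0.047). *Dkc1* was under the minimum, at 1.16 to 1.25 RPKM in the 2.8 mM libraries and 0.666 to 0.703 RPKM in the 16.8 mM libraries, a mean 43.1% lower. The log2 fold change was -0.81 in voom (adjusted p = 4.7e-05) and -0.52 in limma without a minimum (adjusted p = 0.039).

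The abundant nucleolar proteins gave some of the largest falls. *Ncl*, annotated at chr1:88241294-88256030 of NCBI build 37 (minus strand), encodes nucleolin, which binds ribosomal RNA precursors and nucleolar chromatin. It fell from 22.4 and 20.1 RPKM to 13.2 and 12.7 RPKM. The groups lay further apart than the replicates did, and the log2 fold change was -0.69 ± 0.12 (adjusted p = 0.0064, limma). *Npm1*, which encodes a nucleolar chaperone of histones and ribosomal proteins, fell from 17.5 and 15.8 RPKM to 11.2 and 10.6 RPKM. Its fold change was -0.59 ± 0.12 (adjusted p = 0.011, limma), and a second *Npm1* entry gave -0.58. *Npm1* has many processed copies in the genome that can share its reads, and how such reads were placed is not given in the sources used here. Its call was lost without 16.8 mM replicate 2 (adjusted p = 0.064). *Mybbp1a*, a Myb-binding protein that sits in the nucleolus, fell from 11.2 and 10.9 RPKM to 7.24 and 6.53 RPKM. Both 16.8 mM values were well under both 2.8 mM values (-0.65 ± 0.11, adjusted p = 0.0060, limma). The phosphoprotein gene *Nolc1* was at 4.35 to 4.46 RPKM against 3.44 to 3.80 RPKM, and the helicase gene *Ddx21* at 2.66 to 2.99 RPKM against 2.00 to 2.37 RPKM. Their changes of -0.25 and -0.31 did not pass in limma (adjusted p = 0.085 and 0.061) but did in voom (adjusted p = 0.027 and 0.0087). *Ddx21* passed without 16.8 mM replicate 1 (adjusted p = 0.027).

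The RNA polymerase I group holds the catalytic subunits *Polr1a* and *Polr1b*, the subunit *Polr1c* that RNA polymerase III shares, the initiation factor *Rrn3* and the upstream binding factor *Ubtf*, which keeps ribosomal DNA open. *Ubtf* fell from 7 and 6.17 RPKM to 4.20 and 3.82 RPKM. That put the 16.8 mM mean 39.1% under the 2.8 mM mean, and the log2 fold change was -0.65 ± 0.11 (adjusted p = 0.0058, limma), and a second *Ubtf* entry gave -0.60 ± 0.11. *Polr1c* fell from 6.27 and 5.61 RPKM to 4.55 and 4.36 RPKM. Its change of -0.38 ± 0.10 (adjusted p = 0.032, limma) was smaller, and the call was lost without 2.8 mM replicate 1 (adjusted p = 0.168), 16.8 mM replicate 1 (0.069) or 16.8 mM replicate 2 (0.141). The other 3 were under the minimum, with groups that did not overlap. *Polr1a* was at 0.442 to 0.471 RPKM against 0.269 to 0.292 RPKM, *Polr1b* at 0.686 to 0.738 against 0.445 to 0.490, and *Rrn3* at 1.07 to 1.17 against 0.672 to 0.778. Their 16.8 mM means were 38.6%, 34.4% and 35.5% lower, close to that of *Ubtf*. In voom the log2 fold changes were -0.70, -0.61 and -0.63 (adjusted p = 5.4e-05, 5.4e-04 and 1.7e-04). In limma without a minimum, *Polr1a* passed (adjusted p = 0.048), whereas *Polr1b* (0.057) and *Rrn3* (0.068) did not.

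The product of this polymerase is represented by *Rn45s*, the ribosomal RNA precursor. It stood at 795 and 4066 RPKM in replicates 1 and 2 at 2.8 mM and at 701 and 3676 RPKM at 16.8 mM. The level thus went with the replicate number and not with glucose, and no change was called (-0.16 ± 0.90, adjusted p = 0.898, limma). The value turned with the libraries kept, to 1.01 without 2.8 mM replicate 2 and to -1.34 without 2.8 mM replicate 1. The TruSeq RNA kit selects polyadenylated RNA, which this precursor lacks, so the level is not a measure of its synthesis.

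Of the 11 members that act on the small subunit, 9 were tested and 5 fell. *Rrp9*, a U3 snoRNA-binding protein of the SSU processome (chr9:106379649-106387755 of NCBI build 37, plus strand), had the largest fall of the list. Its values were 2.09 and 1.89 RPKM at 2.8 mM and 1.04 and 1 RPKM at 16.8 mM. The 16.8 mM mean was thus 48.6% under the 2.8 mM mean, and the log2 fold change was -0.71 ± 0.08 (adjusted p = 0.0015, limma). *Nob1*, the nuclease that makes the final cut of 18S ribosomal RNA, had the highest RPKM of this group and fell from 2.11 and 2.12 RPKM to 1.52 and 1.33 RPKM. Its 2.8 mM replicates were nearly equal (-0.45 ± 0.09, adjusted p = 0.0092, limma). Among the processome proteins of the transcription-coupled UTP complex, *Heatr1* fell from 1.43 and 1.33 RPKM to 0.943 and 0.893 RPKM, *Utp15* from 1.69 and 1.69 RPKM to 1.27 and 1.14 RPKM, and *Wdr75* from 1.59 and 1.54 RPKM to 1.17 and 0.979 RPKM. Their groups did not overlap either, and the fold changes were -0.41 ± 0.08, -0.36 ± 0.08 and -0.40 ± 0.09 (adjusted p = 0.0083, 0.017 and 0.016, limma). Without 16.8 mM replicate 2 the calls of *Utp15* (adjusted p = 0.061) and *Wdr75* (0.053) were lost.

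The remaining small subunit members gave smaller values. *Wdr43*, a further UTP protein, was at 1.08 to 1.14 RPKM against 0.865 to 0.966 RPKM, and the log2 fold change was -0.19 (adjusted p = 0.108, limma). *Nop14* was at 1.34 to 1.42 RPKM against 1.10 to 1.25 RPKM and its log2 fold change was -0.17 (adjusted p = 0.154, limma). *Ltv1*, a factor of late cytoplasmic maturation, was at 1.42 to 1.60 RPKM against 1.35 to 1.38 RPKM and its log2 fold change was -0.10 (adjusted p = 0.367, limma). *Bysl*, another late factor, differed between the groups by less than its spread. It lay at 1.31 to 1.32 RPKM at 2.8 mM and 1.23 to 1.43 RPKM at 16.8 mM, and the 95% interval of its log2 fold change ran from -0.19 to 0.22. Its span overlaps that of *Ccnd3* on the opposite strand by 353 bases, and *Ccnd3* was at 3.49 to 3.64 RPKM against 4.19 to 4.76 RPKM. Whether reads were counted by strand is not given in the sources used here. *Utp20* and *Rrp12* were under the minimum, at 0.412 to 0.439 against 0.255 to 0.268 RPKM and at 0.656 to 0.715 against 0.480 to 0.561 RPKM. In voom both passed, with log2 fold changes of -0.70 (adjusted p = 4.4e-05) and -0.40 (adjusted p = 0.010), and *Utp20* alone passed in limma without a minimum (adjusted p = 0.044).

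Of the 10 large subunit members, 8 were tested and 3 fell. *Gnl3*, which encodes the nucleolar GTPase nucleostemin, fell from 8.52 and 8.43 RPKM to 6.54 and 5.54 RPKM. *Nop16* fell from 1.87 and 1.72 RPKM to 1.30 and 1.25 RPKM. *Nle1*, a Notchless homologue that acts late in 60S assembly, fell from 1.4 and 1.31 RPKM to 1.01 and 0.950 RPKM. In all of these the 16.8 mM libraries were under the 2.8 mM libraries, by -0.46 ± 0.12 for *Gnl3*, -0.37 ± 0.08 for *Nop16* and -0.33 ± 0.08 for *Nle1* (adjusted p = 0.024, 0.015 and 0.018, limma). Without 16.8 mM replicate 2 the calls of *Gnl3* (adjusted p = 0.172) and *Nle1* (0.051) were lost, and without 2.8 mM replicate 1 those of *Nop16* (0.078) and *Nle1* (0.067).

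*Rrp1* had the highest RPKM of the large subunit group, 7.84 and 6.78 RPKM at 2.8 mM and 8.23 and 7.07 RPKM at 16.8 mM. Its groups interleaved, with a log2 fold change of 0.06 and a 95% interval from -0.24 to 0.36, which does not reach the value of *Gnl3*. The methyltransferase gene *Nop2*, *Pes1* of the PeBoW complex, *Rrs1* of the 5S particle and the GTPase gene *Gnl2* had log2 fold changes of -0.22, -0.16, -0.31 and -0.11 (adjusted p = 0.15, 0.253, 0.149 and 0.368, limma). Of these, *Rrs1* passed without 2.8 mM replicate 2 (adjusted p = 0.021) and *Nop2* without 16.8 mM replicate 1 (adjusted p = 0.025). The partners of *Pes1*, *Bop1* and *Wdr12*, were under the minimum. *Bop1* was at 0.915 to 0.928 RPKM against 0.747 to 0.820 RPKM, and *Wdr12* at 0.795 to 0.942 RPKM against 0.579 to 0.620 RPKM. In voom *Wdr12* passed with -0.53 (adjusted p = 0.0020) and *Bop1* did not (-0.23, adjusted p = 0.091). The span of *Pes1* is crossed by a gene on the opposite strand over 12804 bases, and that of *Bop1* encloses *Scx*, at 0.244 to 0.373 RPKM.

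**Figure D2:**
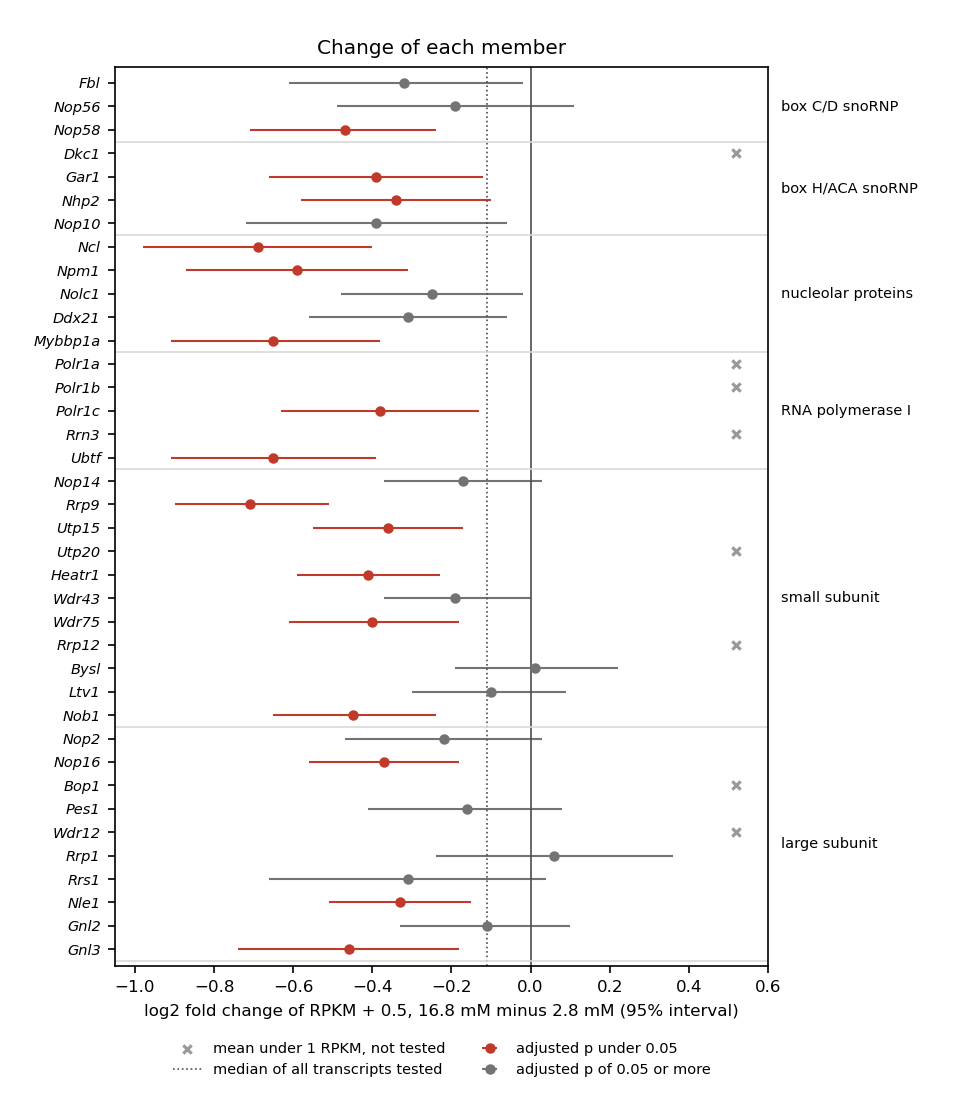
Log2 fold change of RPKM + 0.5 (x axis, 16.8 mM minus 2.8 mM) of each member by role (y axis), with 95% intervals from limma over 2 against 2 libraries. Red points passed an adjusted p of 0.05, grey points did not, crosses at the right edge mark the 8 members that were not tested and carry no value, and the dotted line is the median of all transcripts tested, -0.11.

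For the 18 members whose span gave whole reads, reads were also set against exon length, per kilobase of exon and per 1000000 reads. These reads were counted over the genomic span, so they can include reads from introns and from genes across the span. The values are therefore not exon levels, and their order may reflect such reads. *Ubtf* had the highest mean on this scale, 20.5, with 27.1 and 23.9 at 2.8 mM and 16.3 and 14.8 at 16.8 mM. *Wdr75* (14.1), *Pes1* (12.9), *Wdr43* (12.6) and *Gar1* (10.4) came next, and *Polr1b* was the lowest at 3.78. Each gene's range over the 4 libraries overlapped that of its neighbour in this order, so only the wide steps separate values on this scale. On the same scale the initiation factor *Rrn3* was at 8.77 and the catalytic subunits *Polr1a* and *Polr1b* at 4.24 and 3.78. The part of intron reads in this difference was not tested. Together these 18 genes held 513 and 474 reads per 1000000 at 2.8 mM and 373 and 331 at 16.8 mM.

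Several members carry small nucleolar RNAs (snoRNAs) in their introns, so that 1 transcript yields both a nucleolar protein and a guide RNA. The table has 8 such entries, in *Ncl*, *Nop58*, *Nop56* and *Gnl3*. A pair from *Ncl* and 1 from *Nop58*, the snoRNAs whose entries fell, are shown as the NCBI build 37 genome holds them. In the box C/D RNAs capitals mark a TGATGA (box C) and the last CTGA (box D), and in the box H/ACA RNA they mark the ACA near the 3' end. *Snord82* lies at chr1:88252836-88252905 (minus strand), *Snora75* at chr1:88247744-88247876 (minus strand) and *Snord70* at chr1:59748778-59748864 (plus strand).
Snord82: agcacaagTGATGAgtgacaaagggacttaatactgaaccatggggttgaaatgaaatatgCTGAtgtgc
Snora75: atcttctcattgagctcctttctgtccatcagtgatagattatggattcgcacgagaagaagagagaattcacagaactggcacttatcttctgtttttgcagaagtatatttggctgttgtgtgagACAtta
Snord70: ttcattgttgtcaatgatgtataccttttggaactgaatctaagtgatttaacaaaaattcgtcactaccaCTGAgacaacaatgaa
The box C letters searched for, TGATGA, are not in the first part of *Snord70*, which has a box D match alone.

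*Snord82* fell from 51.8 and 43.9 RPKM at 2.8 mM to 27.0 and 23.8 RPKM at 16.8 mM. *Snora75* fell from 26.2 and 23.4 RPKM to 12.7 and 15.2 RPKM. Both thus fell beside their host *Ncl*, with log2 fold changes of -0.90 ± 0.14 and -0.81 ± 0.14 (adjusted p = 0.0047 and 0.0060, limma). *Snord70* fell from 14.5 and 11.5 RPKM to 9.82 and 6.81 RPKM (-0.62 ± 0.19, adjusted p = 0.043, limma), beside its host *Nop58*. The other 5 did not pass. *Snord11* of *Nop58* had -0.59 (adjusted p = 0.055), *Snord69* and *Snord19* of *Gnl3* -0.64 (0.067) and -0.23 (0.166), and *Snord110* and *Snord57* of *Nop56* 0.00 (0.974) and -0.14 (0.634), all from limma. A read inside such a snoRNA may come from the host's unspliced RNA or from the snoRNA, and these cannot be told apart. Since the TruSeq RNA kit selects polyadenylated RNA, these entries are not a measure of the level of guide RNAs. They also lie within the span of the host, so their falls are no separate support for the fall of the host. By the annotated spans, the reads of any of the 8 entries were at most 3.70% of those of its host.

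**Figure D3:**
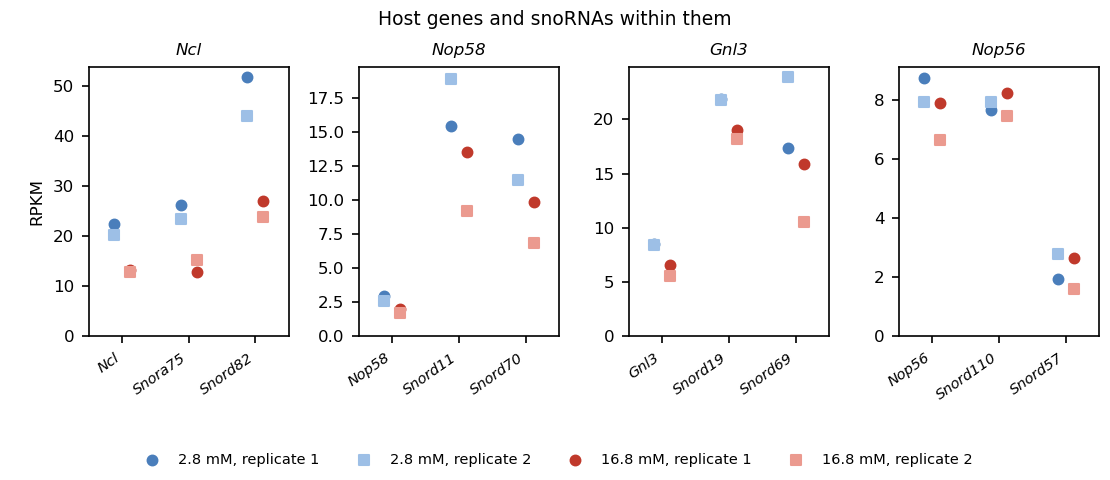
RPKM (y axis, starting at 0, a scale for each panel) of 4 host genes and of the snoRNA entries within them, with 1 point per library. Blue 2.8 mM points lie above red 16.8 mM points for Ncl, Snora75 and Snord82, and the points mix for Snord110 and Snord57.

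Promoters were read because Myc with its partner Max binds the E-box CACGTG, a palindrome that reads the same on both strands. RefSeq promoters of GRCm38.p6, each from 250 bases before to 50 bases after a start site, were at hand for 32 members. The letters CACGTG were found in 8 of them, or 25.0%, namely *Ltv1*, *Mybbp1a*, *Nle1*, *Nop2*, *Pes1*, *Rrn3*, *Utp20* and *Wdr43*. Counted by gene as well, the share was 8.09% of all 27025 genes with a promoter, 13.1% of the 4686 tested ones and 16% of 106 other ribosome biogenesis genes. Counted by promoter, it was 7.15% of all 32851. Of the 6 members with an E-box that were tested, 2 fell (*Mybbp1a* and *Nle1*), and of the 20 tested members without it in this window, 13 fell. Shown are the promoters of these 2, of *Rrn3*, which holds 2 E-boxes, and of *Rrp9*, the member with the largest fall, which has none in the window. E-boxes are in capitals and begin 40 bases after the start site in *Mybbp1a*, 23 bases after it in *Nle1*, and 215 and 48 bases before it in *Rrn3*. The windows lie at chr11:72441077-72441376 (plus strand), chr11:82908346-82908645 (minus strand), chr16:13780449-13780748 (plus strand) and chr9:106477059-106477358 (plus strand) of GRCm38.p6.
Mybbp1a: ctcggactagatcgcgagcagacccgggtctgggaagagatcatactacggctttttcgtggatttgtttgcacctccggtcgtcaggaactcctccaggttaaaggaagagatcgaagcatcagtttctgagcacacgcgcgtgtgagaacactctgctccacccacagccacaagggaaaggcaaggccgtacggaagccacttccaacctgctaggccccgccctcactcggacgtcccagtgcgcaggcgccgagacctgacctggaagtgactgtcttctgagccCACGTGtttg
Nle1: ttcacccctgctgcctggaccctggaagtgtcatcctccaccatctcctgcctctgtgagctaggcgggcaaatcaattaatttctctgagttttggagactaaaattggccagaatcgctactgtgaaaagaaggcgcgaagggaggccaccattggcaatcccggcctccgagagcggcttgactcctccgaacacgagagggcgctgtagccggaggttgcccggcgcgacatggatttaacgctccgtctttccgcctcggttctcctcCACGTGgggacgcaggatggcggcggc
Rrn3: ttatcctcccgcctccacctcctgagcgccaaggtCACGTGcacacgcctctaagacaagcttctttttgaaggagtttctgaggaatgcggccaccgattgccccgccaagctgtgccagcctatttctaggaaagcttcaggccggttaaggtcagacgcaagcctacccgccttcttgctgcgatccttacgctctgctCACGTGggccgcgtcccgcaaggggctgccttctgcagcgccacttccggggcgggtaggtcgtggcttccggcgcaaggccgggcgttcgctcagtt
Rrp9: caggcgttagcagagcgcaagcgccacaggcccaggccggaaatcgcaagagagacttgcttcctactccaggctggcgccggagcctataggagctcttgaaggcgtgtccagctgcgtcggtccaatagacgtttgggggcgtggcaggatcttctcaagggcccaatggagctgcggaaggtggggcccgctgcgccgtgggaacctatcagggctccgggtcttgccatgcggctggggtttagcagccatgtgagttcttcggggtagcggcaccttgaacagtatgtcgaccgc
The 7 letters CCGGAAG or their complement CTTCCGG, a core of ETS factor sites, were found in 8 of the 32 members with a promoter (25.0%). The share was 9.93% of all 27025 genes with a promoter, 24.3% of tested genes and 46.2% of the 106 other ribosome biogenesis genes. Counted by promoter, it was 8.86% of all. No protein binding was measured here, and a match is a description of letters.

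Myc itself fell more than any member. *Myc* stood at 3.51 and 3.24 RPKM at 2.8 mM and at 1.04 and 0.933 RPKM at 16.8 mM. The groups lay far apart, and the log2 fold change was -1.38 ± 0.09 (adjusted p = 1.6e-04, limma). Its partner *Max* was at 1.65 to 1.77 RPKM against 1.42 to 1.61 RPKM (-0.14, adjusted p = 0.264, limma), and *Mycn* was between 0.0685 and 0.0960 RPKM, too low to test. *Mnt*, a Max partner that opposes Myc, fell from 2.61 and 2.54 RPKM to 1.78 and 1.60 RPKM (-0.49 ± 0.09, adjusted p = 0.0068, limma). *Mlxipl*, which encodes the glucose-responsive factor ChREBP, was at 3.16 to 3.71 RPKM against 2.56 to 2.69 RPKM. It passed narrowly (-0.33 ± 0.10, adjusted p = 0.048, limma) and did not pass without 2.8 mM replicate 2 (adjusted p = 0.283), 16.8 mM replicate 1 (0.068) or 16.8 mM replicate 2 (0.149). The call was also lost after median centring (adjusted p = 0.147), quantile normalization (0.15) or scaling without the 10 most abundant genes (0.093), while adjusted p over all its alternatives ran from 0.0019 to 0.283. Of the 11 genes in this network, 6 were tested. Of these 6, 3 were lower and 0 higher (limma), against 22.8% of all transcripts tested lower. At an unadjusted p under 0.05, 0 were higher as well, and in voom 2 genes of the network were higher.

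Beyond the members, 131 of 132 other ribosome biogenesis genes had an entry and 86 were tested. Of these, 32 (37.2%, against 22.8% of all transcripts) fell and 0 rose (limma), also 0 higher at an unadjusted p under 0.05 and 1 higher in voom, with a median log2 fold change of -0.23. Small subunit factors (13 of 30 lower) and large subunit factors (16 of 37 lower) made up most of the falls. The exosome, which trims ribosomal RNA ends, had 3 of 11 lower, and of 5 RNA polymerase I genes and 3 snoRNP assembly genes tested none passed (1 of each was lower at an unadjusted p under 0.05). The count depended on the libraries, with 15 changed without 2.8 mM replicate 1 and 11 without 16.8 mM replicate 2. Among the genes past the threshold, and on the log2(RPKM + 0.5) scale, the largest falls were those of *Exosc5*, *Las1l*, *Pwp2*, *Ddx51* and *Ddx56*, and no rise could be named. Genes under the minimum are not in this order, and in voom *Tcof1* (-0.83) and *Rcl1* (-0.82), named after their values were seen, had values beyond those of *Las1l* (-0.68) and *Pwp2* (-0.76).

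*Exosc5*, an exosome subunit, fell from 1.56 and 1.36 RPKM to 0.794 and 0.771 RPKM, a log2 fold change of -0.61 ± 0.08 (adjusted p = 0.0027, limma). *Las1l*, a nuclease subunit for the second internal spacer, fell from 2.12 and 2.22 RPKM to 1.39 and 1.31 RPKM (-0.53 ± 0.08, adjusted p = 0.0040, limma). *Pwp2*, a core processome protein, fell from 1.39 and 1.44 RPKM to 0.942 and 0.731 RPKM (-0.52 ± 0.10, adjusted p = 0.0073, limma). The groups did not overlap for these or for the helicase genes *Ddx51* and *Ddx56*, with -0.52 ± 0.11 and -0.47 ± 0.09 (adjusted p = 0.011 and 0.0095, limma).

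The proteins of the ribosome itself gave a smaller count. All 78 cytosolic ribosomal protein genes were tested, and 9 (11.5%, under the 22.8% of all transcripts) fell and 0 rose (limma), with 0 higher at an unadjusted p under 0.05 and in voom, and a median of -0.28. *Rpl22* fell most, from 14.2 and 12.4 RPKM to 8.42 and 7.72 RPKM (-0.69 ± 0.12, adjusted p = 0.0065, limma), a gene named after its values were seen. This count was the least stable, between 1 and 33 with a library left out and 28 after median centring. Without 2.8 mM replicate 1 it was 2, without 16.8 mM replicate 1 or 16.8 mM replicate 2 it was 1, and without 2.8 mM replicate 2 it was 33. Both 16.8 mM libraries were under both 2.8 mM libraries for 56 of the 78 genes, against 48.3% of all transcripts tested. The share called and the share without overlap thus stood on different sides of those of all transcripts. Many of these ribosomal protein genes have processed copies that can share reads. Of 76 mitochondrial ribosomal protein genes, 60 were tested, 15 fell (25%, near the 22.8% of all transcripts) and 1 rose (*Mrpl33*, 0.35 ± 0.08, adjusted p = 0.020, limma), with a median of -0.17. After median centring 21 fell and 6 rose, and without 16.8 mM replicate 2 the count was 3 and without 2.8 mM replicate 1 it was 6.

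**Figure D4:**
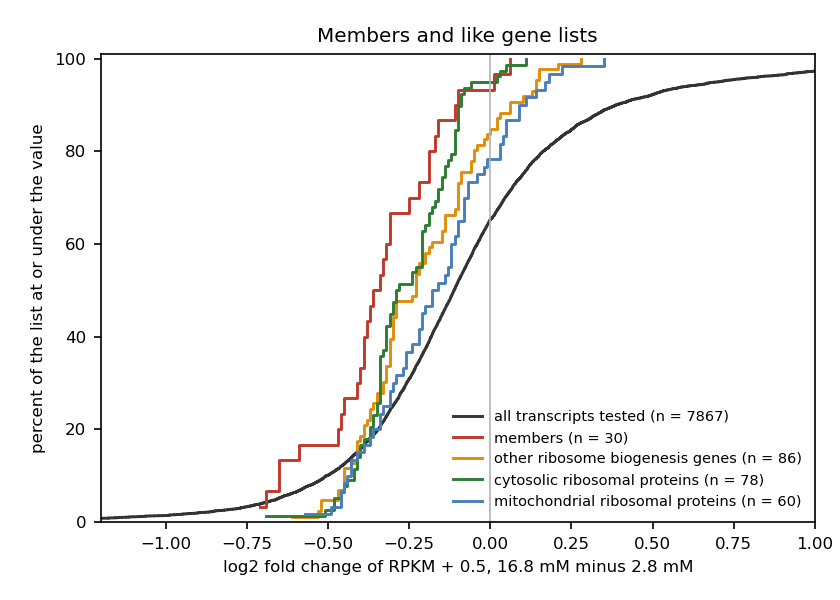
Cumulative share (y axis, percent) of log2 fold changes of RPKM + 0.5 (x axis, 16.8 mM minus 2.8 mM) for 30 tested members, 86 other ribosome biogenesis genes, 78 cytosolic and 60 mitochondrial ribosomal protein genes and all 7867 transcripts tested, cut at -1.2 and 1. The medians are -0.35, -0.23, -0.28, -0.17 and -0.11.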

How the data were processed

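The authors deposited RPKM values for the 4 libraries as 1 table of 33923 entries. Per the labels, STAR, bedtools, DESeq and the mm9 genome (NCBI build 37) were used, and the islet libraries are not described apart. Identical entries of a symbol were used once, which left 28047. Values were tested as log2(RPKM + 0.5) with limma 3.58.1 in R 4.3.3 (variance trend, no replicate block) where the mean reached 1 RPKM (7867 transcripts), with Benjamini-Hochberg adjustment over all of them at 0.05. The test was tried on simulated data. Depth and reads were reconstructed from the steps of the RPKM values. A span gave whole reads (within 0.15) for 18 members, and voom and reads of the others rest on annotated spans. Python 3.11.15, pandas 2.3.3, numpy 2.4.6 and matplotlib 3.10.9 were used. Intervals cover the spread between libraries, whose number limits precision more than depth does.

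The members, the other gene lists and the tests were chosen with earlier results of these data known. All members are named, with values in every library for those past the threshold and for the highest of each role group, and the 5 largest changes in each direction are named among other ribosome biogenesis genes. Alternatives changed the scaling (median centring, quantile normalization, a library sum without the 10 most abundant genes), the minimum (none, or 1 RPKM in every library), the RPKM added (0.1 or 1), the entries (1 per gene), the model (no trend, a replicate block, voom at a mean of 20 reads, voom with the block) and the libraries (leaving out each).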

Additional observations from a re-analysis of the deposited data

How the results depend on the processing

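No member was called higher under any alternative run, and the median log2 fold change of the members stayed between -0.48 (voom, with and without the block, over all 38 members) and -0.26 (without 2.8 mM replicate 1), with -0.43 to -0.26 over the libraries left out. The members called lower were 7 without a minimum, 28 in voom, 35 in voom with the block, and 8 to 19 with a library left out. Without a minimum, all 28047 entries share the adjustment and the variance trend. Other ribosome biogenesis genes changed were 8 without a minimum, 51 with the block, 67 in voom, 84 in voom with the block and 11 to 34 with a library left out. Cytosolic ribosomal protein genes changed were 23 without the trend, 31 after quantile normalization, 28 after median centring, 2 without the 10 most abundant genes, 1 without a minimum, 16 with 1 RPKM in every library, 39 with the block, 40 in voom, 58 in voom with the block and 1 to 33 with a library left out. Mitochondrial ones were 26, 27, 1, 33, 31 and 43 after quantile normalization, after median centring, without a minimum, with the block, in voom and in voom with the block, and 3 to 17 with a library left out. Myc and Max network genes changed were 6 in voom and 8 in voom with the block, and 2 to 3 with a library left out. *Rn45s* ran from -1.36 to 1.03 with a library left out and turned to 1.01 without 2.8 mM replicate 2. The causes were not tested.

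Libraries numbered alike deviated together (r = 0.31 across transcripts, which are not replicates). What the libraries of a pair share beyond the number and the pool is not given in the labels. The replicate block left the 16 member calls in place and added *Fbl*, *Nop10*, *Nolc1*, *Ddx21*, *Wdr43*, *Pes1* and *Rrs1*, for 23 lower of 30 against 36% of all transcripts tested, and over all transcripts it raised the calls from 2628 to 4067. The call of *Mlxipl* was lost with it (adjusted p = 0.051), without the trend (0.053), without a minimum (0.133) and with 1 entry per gene (0.052). Under other scalings of the libraries the calls of *Gar1*, *Nhp2* and *Polr1c* were lost in at least 1 fit. Calls were also gained, of *Nop10*, *Nolc1* and *Ddx21* after median centring and of *Nolc1* and *Ddx21* after quantile normalization. With 2 libraries in a group, a lone library left in a group is assumed to vary like the other group.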
